A study of Mus musculus with 6 samples.

Results

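The 7 genes described here encode kinases and GTPases of the RAS to ERK cascade. They are the GTPase genes Hras and Nras, the RAF kinase genes Araf and Braf, the MEK kinase genes Map2k1 (MEK1) and Map2k2 (MEK2), and Mapk3, which encodes ERK1. They were taken by gene symbol from the deposited tables, where all 7 were found among 54040 genes, and all 7 were among the 16928 genes with enough counts to be tested. The data were RNA-seq libraries of total RNA from dentate gyrus of C57BL/6 mice at postnatal day 40. The 3 libraries labelled cKO came from dentate gyrus deficient in the m6A reader YTHDF2, and the 3 labelled Ctrl came from dentate gyrus that served as negative control. Granule cell is the labelled cell type, but no sorting is described. The labels do not name the Cre line, the deleted exons or the genotype of the controls. Nor do they tie each replicate to a separate animal, so a p-value here reflects the spread among libraries, which may be technical.

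In this cascade a GTP-loaded RAS protein at the membrane recruits a RAF kinase, RAF phosphorylates MEK, and MEK phosphorylates ERK. The members of each tier are paralogs with overlapping functions. In hippocampal neurons the cascade is driven by neurotrophin receptors, NMDA receptors and calcium-dependent RAS exchange factors, and ERK activity there is known for its part in long-term synaptic plasticity and memory. YTHDF2 binds messages that carry N6-methyladenosine and promotes their decay. Messenger levels were measured here, and neither methylation nor kinase activity was.

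Library totals lay between 16794642 and 19190101 counts. Ythdf2 itself did not separate the groups when all 6 libraries were used. It stood at 54.4 to 56.7 CPM (counts scaled for library size, with TMM) in the cKO libraries and at 68.5 and 68.3 CPM in Ctrl replicates 2 and 3, but at 37.8 CPM in the library labelled Ctrl replicate 1, below every cKO library (log2 fold change -0.06 ± 0.15 SE, edgeR adjusted p = 0.882). Without that library Ythdf2 was called lower in cKO (-0.29, edgeR adjusted p = 0.00951). That call cannot serve as a test, since the library was singled out by its Ythdf2 value. Leaving out Ctrl replicate 2 or Ctrl replicate 3 instead gave Ythdf2 log2 fold changes of 0.06 and 0.07. Results below are also given without Ctrl replicate 1. All 8 markers of mature granule cells were present, at a summed 2305 to 2515 CPM over the 6 libraries. By edgeR 1 of the 8 rose, 1 fell and 5 had an unadjusted p under 0.05, with 6 negative and 2 positive values. Their sum thus hides changes in opposite directions. Markers of other cells were present too. Summed astrocyte markers (7 genes) lay at 5678 to 5817 CPM in Ctrl and 5262 to 5294 CPM in cKO, and summed microglial markers (9 genes) at 410.0 to 446 CPM in Ctrl and 355 to 373 CPM in cKO. All 16 of these glial markers had lower means in cKO, and 8 of them fell, where 0.874% of all tested genes were called lower. Oligodendrocyte lineage markers (8 genes) overlapped, at a summed 1427 to 1605 CPM in Ctrl and 1407 to 1554 CPM in cKO, with 0 called. Endothelial markers (5 genes) summed to 68.0 to 71.9 CPM in Ctrl and 72.6 to 76.8 CPM in cKO, with 4 of 5 higher. Of these 5, 0 were called, while 1 of 4 mossy cell and 1 of 4 CA1 markers rose by edgeR. Summed markers of immature granule neurons (5 genes) lay at 228 to 240.0 CPM in Ctrl and 205 to 216 CPM in cKO, with 5 of 5 lower in cKO, 0 called by edgeR and 4 at an unadjusted p under 0.05. Mitochondrial genes took 4.60% to 5.19% of counts in Ctrl and 4.21% to 4.44% in cKO. None of these markers was at 0 counts, and the part of these differences in the results below was not tested.

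The genes of the cascade differed in level far more than they changed between groups. FPKM, which divides by gene length and so allows genes to be compared, averaged 130 for Map2k1 over the 6 libraries, 92.7 for Mapk3, 26.0 for Araf, 24.3 for Hras, 13.7 for Map2k2, 11.7 for Braf and 7.34 for Nras. Map2k1 was thus among the more abundant messages, higher than 98.9% of tested genes, and Nras the least abundant of the 7. Each gene's lowest library lay above the highest library of the next gene in this order, except that the ranges of Araf (24.1 to 27.7 FPKM) and Hras (22.8 to 26.1 FPKM) overlapped. Within a library Araf exceeded Hras in 6 of 6. Raw counts ranged from 632 for Nras to 8600 for Map2k1 per library.

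**Figure D1:**
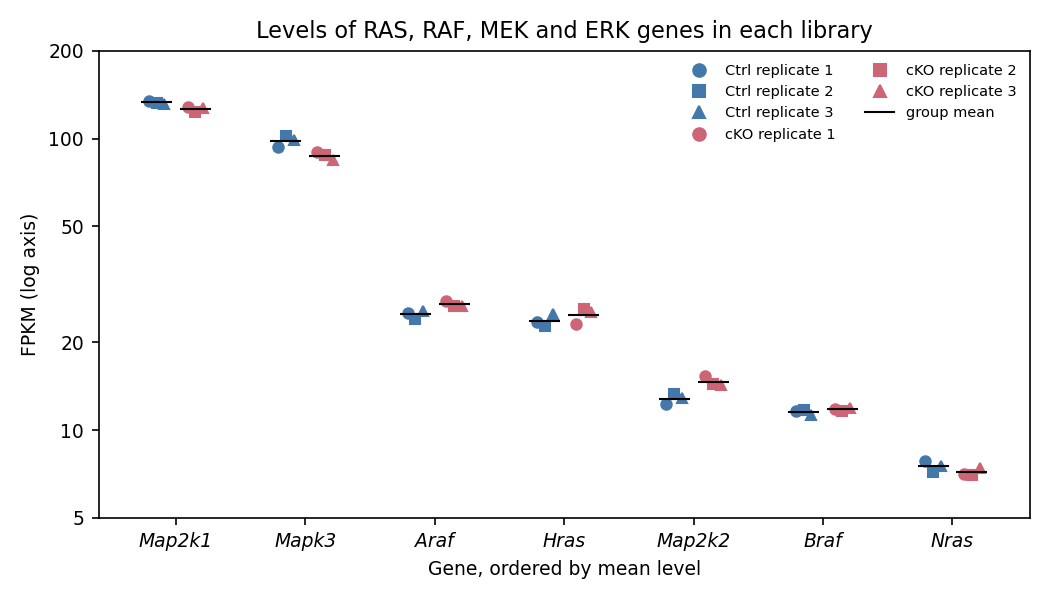
Level of each gene in each library, as deposited FPKM on a log axis, with genes ordered by their mean over the 6 libraries (blue Ctrl, red cKO, symbols for replicates, lines for group means). Map2k1 and Mapk3 stand above the others at 123 to 135 and 84.2 to 102 FPKM, and the groups lie close together for every gene.

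The order depended in part on the gene length used. The deposited length joins all annotated exons, and it is 6541 bases for Araf and 5663 bases for Map2k2, whose principal transcripts in GENCODE M21 measure 2358 and 2405 bases. Of the 9 annotated Map2k2 transcripts 3 retain an intron and 1 is a target of nonsense-mediated decay. When FPKM was rescaled to principal transcripts, a choice made with the data in view, the mean levels were 180.3 for Map2k1, 116 for Mapk3, 72.1 for Araf, 32.4 for Map2k2, 32.1 for Hras, 16.6 for Braf and 8.76 for Nras. Map2k2 then stood level with Hras, with overlapping ranges of 29.0 to 36.1 and 30.1 to 34.4, and Map2k1 and Mapk3 remained the highest. The comparison of CPM between groups does not involve gene length.

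Between the groups Map2k2 was the only one of the 7 genes to pass edgeR's quasi-likelihood test, and it rose. Its level was 87.3, 81.9 and 81.1 CPM in cKO replicates 1, 2 and 3 and 70.0, 75.3 and 72.9 CPM in Ctrl replicates 1, 2 and 3. All 3 cKO libraries lay above all 3 controls. The mean was 83.4 ± 3.39 CPM (SD, n = 3) in cKO and 72.7 ± 2.65 CPM in Ctrl, which is 1.15-fold (log2 fold change 0.20 ± 0.05 SE, edgeR adjusted p = 0.0484). One called gene among 7 is to be read against 3.95% of all tested genes called in either direction, 3.07% called higher in cKO and 0.874% called lower. In whole tissue, a change in the share of cells that carry a message and a change in its amount per cell cannot be told apart.

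The Map2k2 call rested on a narrow margin. Over 18 alternative settings its log2 fold change stayed positive, from 0.09 to 0.22, but the adjusted p exceeded 0.05 in 14 of them, including each of the 6 fits that left out 1 library (adjusted p 0.0763 to 0.182, and 0.125 without the library labelled Ctrl replicate 1). The smallest folds came from correcting each library for GC content and gene length, which took Map2k2 from 0.20 to 0.09 with an edgeR adjusted p of 0.398 (0.09 and 0.379 with the replicate block added). The principal Map2k2 transcript has a GC content of 60.4%, higher than in 95.5% of 13830 tested coding genes, whose median was 50.5%. The correction itself used another value, the median GC content over all annotated transcripts of a gene, together with the deposited gene length. The parts of GC content and of length in it were not separated. Libraries differed in the fitted term with the group. In the tenth of genes richest in GC, the fitted GC and length term averaged 0.02, 0.07 and 0.05 (log2) in cKO replicates 1, 2 and 3 and -0.07, -0.05 and -0.02 in Ctrl replicates 1, 2 and 3.

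**Figure D2:**
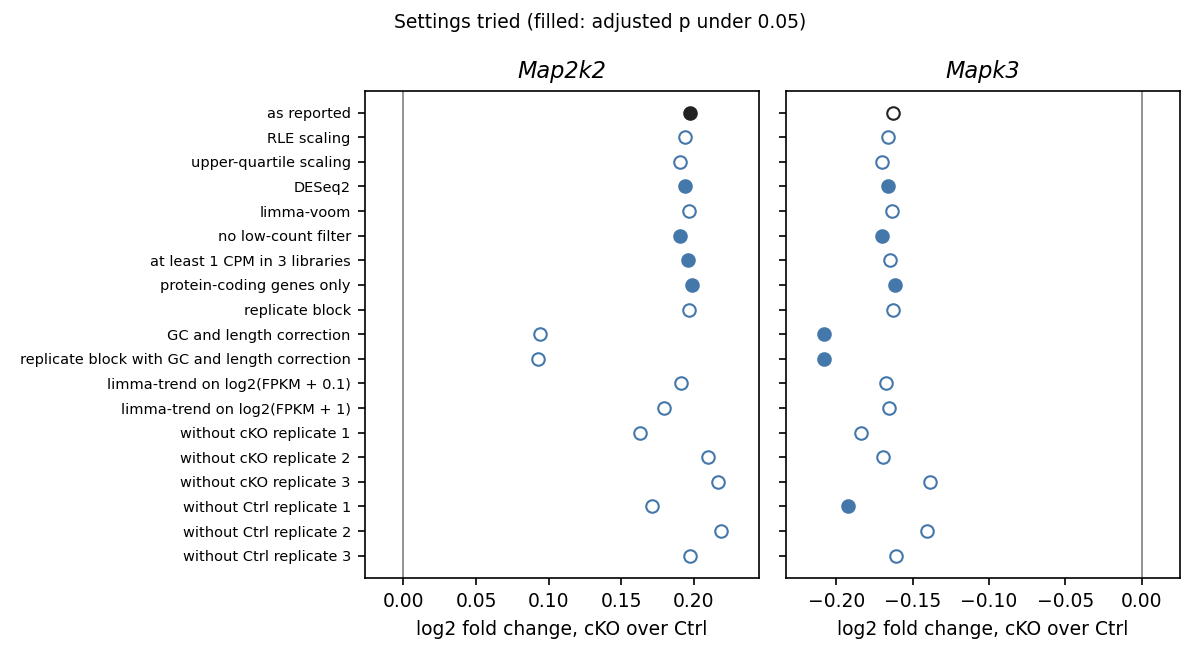
Log2 fold change of Map2k2 (left) and Mapk3 (right), cKO over Ctrl, under each setting, filled where the adjusted p was under 0.05. Map2k2 lies between 0.09 and 0.22 and is filled in 4 of 18 alternatives. Mapk3 lies between -0.21 and -0.14 and is filled in 6 of 18.

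Map2k2 was also the one gene of the 7 with the 5-letter sequence GGACT within 200 bases of its stop codon. GGACT is a common form of the consensus at which N6-methyladenosine is placed, often near stop codons, and is shown because YTHDF2 reads that mark. The sense strand of the principal GENCODE M21 transcript (GRCm38) was searched, and no other motif was. In Map2k2 it lies in the coding sequence at chr10:81123707-81123731 and chr10:81123648-81123672 on the plus strand, with the A of the motif 11 and 70 bases before the end of the stop codon. The nearest match in Map2k1 is coding too, at chr9:64191624-64191648 on the minus strand and 470 bases before that end. The nearest in Araf and Hras lie in the 3′ UTR, at chrX:20860471-20860495 (plus strand) and chr7:141190786-141190810 (minus strand), 370 and 403 bases after the end. The 25-base windows are given 5′ to 3′ with the motif in capitals.
Map2k2 nearest the stop codon: acacccacgcGGACTgcagtgtgac
Map2k2 farther from the stop codon: gggaggaagtGGACTtcgccggctg
Map2k1: agactccaggGGACTcactactctg
Araf: cactattcaaGGACTctcctcttta
Hras: ctgggacctcGGACTatacagccct
A match near the stop codon is common. It occurred in 39.8% of the 13830 tested coding genes, and 92.7% held GGACT somewhere in the transcript. Mapk3 held none in its 1800-base transcript. Hras held 9 matches in all, Araf 6, Braf 5, Map2k2 3, Nras 3 and Map2k1 1. In the 3′ UTR Hras held 8, Braf 4, Nras 2, Araf 1, Map2k2 0 and Map2k1 0. The nearest in Braf (coding) and Nras (5′ UTR) lie 1205 and 739 bases before the end of the stop codon, and their windows are not printed. Whether any of these positions is methylated was not measured.

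Map2k1, the other MEK gene, did not pass the test. Its level was 437, 419 and 433 CPM in cKO replicates 1, 2 and 3, all below the 459, 449.9 and 445 CPM of Ctrl replicates 1, 2 and 3. The log2 fold change was -0.07 ± 0.04 (SE) with an edgeR adjusted p of 0.349 and a 95% interval of -0.15 to 0.01. The MEK paralogs thus had fitted values of opposite sign, and their ratio was compared directly.

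The Map2k2 to Map2k1 ratio was higher in every cKO library than in any control. This had to follow, since every cKO library lay above every control for Map2k2 and below every control for Map2k1. The separation, and the permutation p of the uncorrected ratio, therefore add no evidence beyond the values of each gene. It was 0.120, 0.117 and 0.112 (FPKM over FPKM) in cKO replicates 1, 2 and 3, and 0.0913, 0.1002 and 0.0980 in Ctrl replicates 1, 2 and 3. Map2k2 made up 10.1% to 10.7% of the summed MEK FPKM in cKO and 8.37% to 9.11% in Ctrl. These shares rest on the deposited gene lengths. Rescaled to principal transcripts, Map2k2 averaged 32.4 and Map2k1 180.3 over all libraries. The size of each ratio here and below depends on the length used, but its fold between groups does not. The log2 difference of the ratio was 0.27, or 1.20-fold, with an exact two-sided permutation p of 0.1, which is the smallest that 3 libraries against 3 allow, and 0.2 after Benjamini-Hochberg adjustment over the 3 ratios tested. Library scaling cancels in a ratio but GC content does not. After the GC and length correction, chosen for ratios after the data were seen, the log2 difference was 0.15, again with no overlap and an exact permutation p of 0.1. Without the library labelled Ctrl replicate 1, and without that correction, the log2 difference was 0.23.

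**Figure D3:**
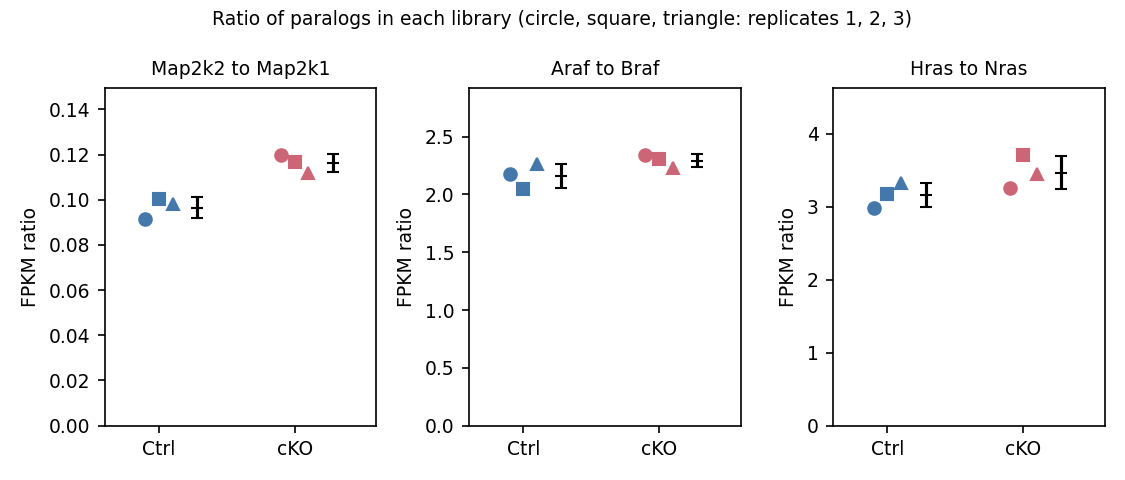
Ratio of the paralogs' FPKM in each library, from an axis starting at 0, with group mean ± SD as bars beside the points. The Map2k2 to Map2k1 ratio is 0.112 to 0.120 in cKO and 0.0913 to 0.1002 in Ctrl, while the groups overlap for the RAF and RAS pairs.

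Mapk3, which encodes ERK1, narrowly missed the threshold, with lower values in cKO. It stood at 204, 199.6 and 191 CPM in cKO replicates 1, 2 and 3 and at 213, 230 and 223 CPM in Ctrl replicates 1, 2 and 3. The groups did not overlap. The mean was 198 ± 6.44 CPM in cKO and 222 ± 8.59 CPM in Ctrl, which is 0.893-fold. The log2 fold change was -0.16 ± 0.04 (SE), its 95% interval ran from -0.26 to -0.07, and the edgeR adjusted p was 0.0534. Mapk3 passed the test in 6 of the 18 alternatives. Without the library labelled Ctrl replicate 1 it stood at -0.19 with an edgeR adjusted p of 0.0259, and after the GC and length correction at -0.21 with 0.0228. In both settings it was the only one of the 7 genes called, where 2.91% and 2.56% of all tested genes were called. Its principal transcript is also rich in GC, at 57.6%, and the correction moved Map2k2 towards 0 and Mapk3 away from it.

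Neither RAF gene passed. Araf stood at 182, 176 and 174 CPM in cKO replicates 1, 2 and 3 and at 166, 158 and 167 CPM in Ctrl replicates 1, 2 and 3, with the groups apart. Its log2 fold change was 0.12 ± 0.04 (SE) with an edgeR adjusted p of 0.156, and 0.07 after the GC and length correction. Braf, the RAF paralog with the highest basal kinase activity, stood at 165, 161 and 166 CPM in cKO replicates 1, 2 and 3 against 162, 163 and 157 CPM in Ctrl replicates 1, 2 and 3, and the groups overlapped. Its log2 fold change was 0.03 ± 0.04 (SE) with a 95% interval of -0.06 to 0.12 and an edgeR adjusted p of 0.746. The Araf to Braf ratio averaged 2.29 ± 0.0578 (SD, n = 3) in cKO and 2.16 ± 0.106 in Ctrl, with overlap between the groups (exact two-sided permutation p = 0.2, and 0.2 adjusted over the 3 ratios). The GC and length correction took its log2 difference from 0.09 to 0.02 (exact permutation p = 0.7). The annotated ends of Araf and Braf overlap genes on the opposite strand, Syn1 by 9 bases and Ndufb2 by 146 bases, and whether counting used strand is not stated.

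The RAS genes did not pass either. Hras stood at 86.5, 97.9 and 95.6 CPM in cKO replicates 1, 2 and 3 and at 87.9, 85.1 and 93.4 CPM in Ctrl replicates 1, 2 and 3. Nras stood at 37.9, 37.7 and 39.6 CPM in cKO replicates 1, 2 and 3 and at 42.0, 38.2 and 40.2 CPM in Ctrl replicates 1, 2 and 3. Both pairs of groups overlapped. The log2 fold changes were 0.07 ± 0.06 (SE) for Hras and -0.06 ± 0.06 (SE) for Nras, with edgeR adjusted p-values of 0.573 and 0.653. Leaving out 1 library moved Hras to between 0.04 (without cKO replicate 2) and 0.12 (without cKO replicate 1), and Nras to between -0.03 (without Ctrl replicate 1) and -0.10 (without Ctrl replicate 2). Hras varied most within the cKO group, with a coefficient of variation of 6.45% against 1.44% for Braf, and its value after the GC and length correction was -0.0096. The Hras to Nras ratio averaged 3.47 ± 0.227 (SD, n = 3) in cKO and 3.16 ± 0.168 in Ctrl, with overlap between the groups (exact two-sided permutation p = 0.2, and 0.2 adjusted over the 3 ratios). The GC and length correction took its log2 difference from 0.13 to 0.02 (exact permutation p = 0.8).

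**Figure D4:**
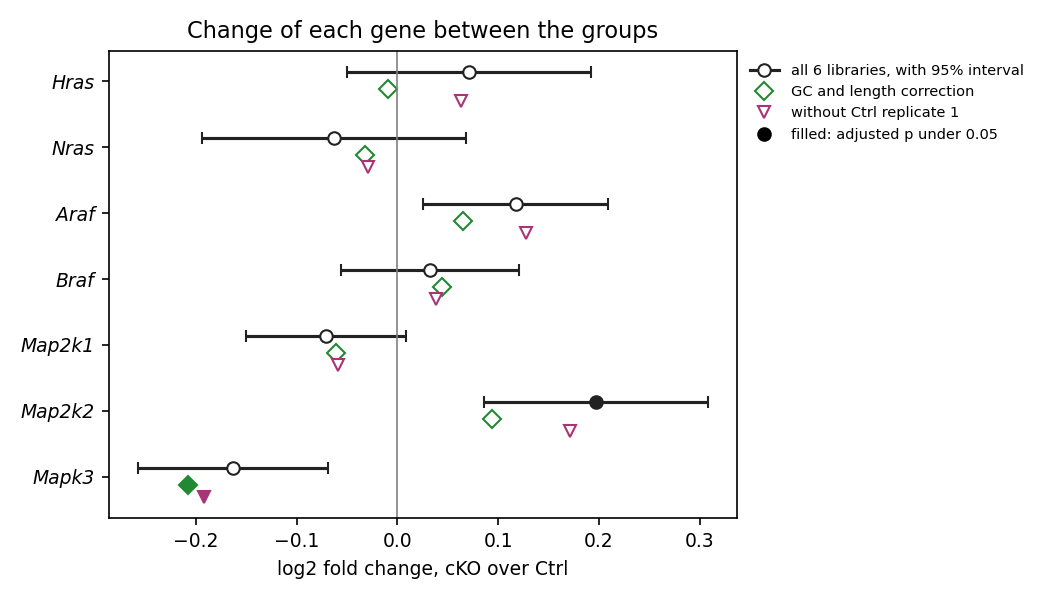
Log2 fold change of each gene, cKO over Ctrl. Circles with bars are the fit to all 6 libraries with its 95% interval, diamonds the fit after GC and length correction and triangles the fit without Ctrl replicate 1, each filled where the adjusted p was under 0.05. Map2k2 is filled in the fit to all libraries at 0.20 and open in the other settings, whereas Mapk3 is open at -0.16 and filled at -0.21 and -0.19.

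Over the 7 genes the values were small. Log2 fold changes ran from -0.16 to 0.20 with a median of 0.03, against a median of -0.001 and quartiles of -0.10 and 0.11 over all tested genes. The groups did not overlap for 4 of the 7, Araf, Map2k1, Map2k2 and Mapk3, as for 22.9% of all tested genes (12.5% higher and 10.5% lower in cKO). Of those 4, Araf and Map2k2 were higher in cKO and Map2k1 and Mapk3 lower, so the cascade's tiers had no common direction.

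The RAS relatives Mras, Rras2 and Rras were also measured, and 0 of these 3 genes were called by edgeR, DESeq2 or limma-voom, with 0 at an unadjusted edgeR p under 0.05. Their log2 fold changes were -0.05 for Mras, -0.06 for Rras2 and 0.11 for Rras, with edgeR adjusted p-values of 0.522 to 0.818.

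The wider pathway gave few calls. Of 83 listed genes in 7 lists, 82 were matched by symbol and 78 tested, of which 3 rose, 1 fell and 74 did not pass. This is 5.13% called, against 3.95% of all tested genes, with a median log2 fold change of -0.004. The calls were spread over separate lists. Spred3, of the family of RAS to ERK inhibitors, rose to 49.3 ± 4.57 CPM in cKO against 38.7 ± 2.49 CPM in Ctrl (a log2 change of 0.35, edgeR adjusted p = 0.0156), 1 of 14 phosphatase and inhibitor genes. Shc2, an adaptor between receptor tyrosine kinases and RAS exchange factors, rose by 0.22 on the log2 scale (edgeR adjusted p = 0.0465), 1 of 14 adaptor and exchange factor genes. Of 8 RAS GTPase-activating protein genes, 0 were called by edgeR or limma-voom, 1 (Rasa1) was called by DESeq2, and 2 had an unadjusted edgeR p under 0.05. These were Rasa1, at 84.4 ± 5.14 CPM in cKO against 97.0 ± 7.53 CPM in Ctrl (a log2 fold change of -0.20, edgeR adjusted p = 0.0903), and Rasal1, at 68.5 ± 3.44 CPM against 58.3 ± 8.02 CPM (0.23, 0.131). edgeR called Rasal1 with the replicate block (0.24, adjusted p = 0.0382), without Ctrl replicate 3 (0.35, 0.00986) and without the low-count filter (0.22, 0.00996), and in the last of these Rasa1 as well (-0.21, 0.00829).

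Among 11 scaffolds and RAF regulators, the entry with the deposited symbol Ksr2 fell to 243 ± 3.995 CPM in cKO against 271 ± 7.34 CPM in Ctrl (a log2 change of -0.16, edgeR adjusted p = 0.0433). This entry is ENSMUSG00000025658, on the minus strand of chromosome X. Cnksr2 of the same list had no entry under its own symbol, so the entry may count Cnksr2 rather than Ksr2. Of the 11 genes 9 had negative values, with a list median of -0.09. Of 14 kinases and transcription factors downstream of ERK, 0 were called by edgeR, DESeq2 or limma-voom and 1 had an unadjusted edgeR p under 0.05, with log2 fold changes of 0.15 for Mknk2 and 0.11 for Mknk1, both kinases of translation factor eIF4E. Of 14 other MAP2K and MAPK genes, Mapk7 (ERK5) rose to 42.7 ± 3.69 CPM against 34.6 ± 2.38 CPM (0.30, edgeR adjusted p = 0.0356), whereas Map2k5, the kinase upstream of ERK5, stood at -0.06 (0.69) and is named after its value was seen. After the GC and length correction 2 of the 78 genes were called, Spred3 and, lower in cKO, Pea15a, an ERK-binding protein gene named after its value was seen. That share, 2.56%, equals the 2.56% of all tested genes called in that setting. The correction left Shc2 at 0.12 (edgeR adjusted p = 0.249), Mapk7 at 0.20 (0.161) and the entry with the symbol Ksr2 at -0.13 (0.0809). Without the library labelled Ctrl replicate 1 Spred3 was the 1 pathway gene outside the 7 that edgeR called, and without cKO replicate 3 or Ctrl replicate 2 edgeR called 0 of them, in fits where 1.21% and 2.04% of all tested genes were called.

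**Figure D5:**
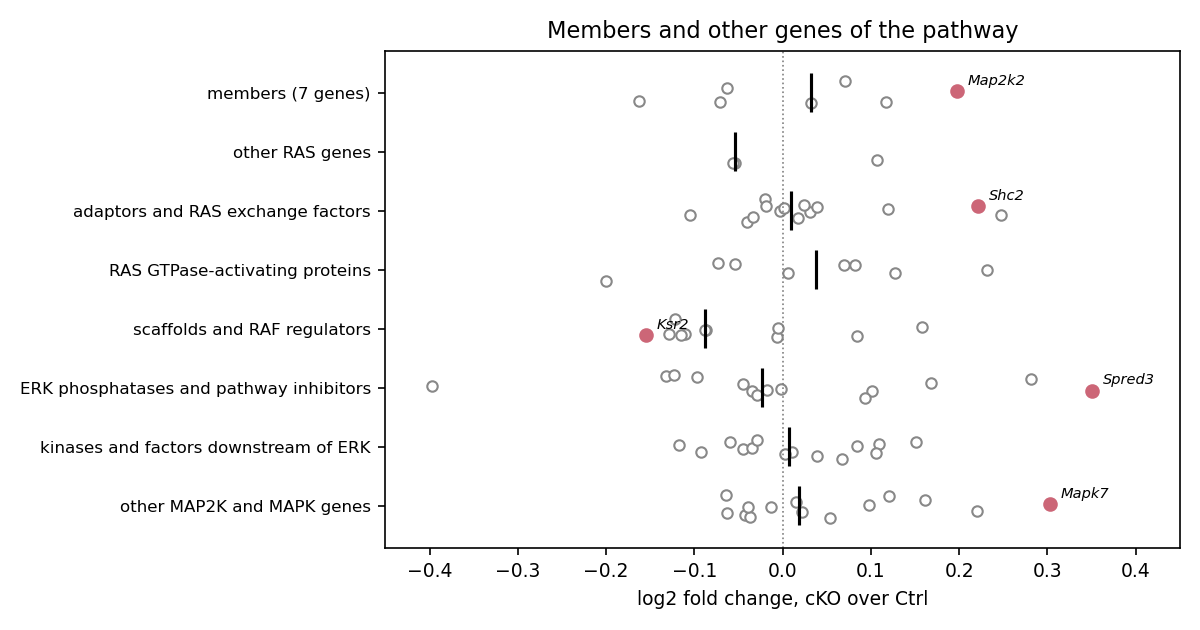
Log2 fold change, cKO over Ctrl, of the 7 genes (top row) and of 78 tested genes in 7 pathway lists, with 1 point per gene, filled and named where the edgeR adjusted p was under 0.05, and a line at each list's median. List medians lie between -0.09 and 0.04, and of the 5 named genes the entry with the deposited symbol Ksr2 is the 1 below 0.

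Genes whose log2 CPM most resembled each of the 7 over the 6 libraries were sought among 13161 genes with a mean of at least 1 CPM. Pearson's r is given as a description, since with 6 libraries and this many genes high values are to be expected. The closest were Wscd2 for Map2k2 (r = 0.997), Tmem120b for Araf (0.998), Mrpl50 for Map2k1 (0.996), the RNA-binding protein gene Sfpq for Braf (0.993), the ribonuclease gene Rnase4 for Nras (0.993), the cadherin gene Cdh20 for Mapk3 (0.990) and the ubiquitin ligase gene Znrf1 for Hras (0.985).

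By position in the deposited table, on GRCm38, the genes lie on 6 chromosomes. Map2k2 (ENSMUSG00000035027) spans 81105915 to 81133975 on the plus strand of chromosome 10, Map2k1 (ENSMUSG00000004936) spans 64185770 to 64253631 on the minus strand of chromosome 9, and Mapk3 (ENSMUSG00000063065) spans 126759601 to 126765819 on the plus strand of chromosome 7. Hras (ENSMUSG00000025499) lies on the same chromosome, from 141189105 to 141194005 on the minus strand. Araf (ENSMUSG00000001127) spans 20797814 to 20860519 on the plus strand of chromosome X, Braf (ENSMUSG00000002413) spans 39603237 to 39725463 on the minus strand of chromosome 6, and Nras (ENSMUSG00000027852) spans 103058285 to 103067914 on the plus strand of chromosome 3. The processed pseudogene Nras-ps2 had 0 counts in every library, which does not show how reads shared with Nras were counted.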

How the data were processed

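The authors deposited raw gene counts and FPKM of the same libraries. The submitters' processing notes name the build GRCm38 and the tools featureCounts 1.5.0-p3, HISAT2 2.0.5 and StringTie 1.3.3b, without saying which made which value. Columns were matched to samples by title, with 0 left unused. Replicates were not duplicates, with a chi-square per degree of freedom of 2.71 to 4.70.

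Counts were tested in R 4.3.3 with edgeR 4.0.16 (filterByExpr with minimum count 10 and minimum total count 15, TMM, quasi-likelihood F test, group as the only term), with Benjamini-Hochberg adjustment over all 16928 genes and calls under 0.05. The common biological coefficient of variation was 5.67%. Ratios of paralogs were compared by exact permutation. The members and lists were chosen with earlier results of these data known. Some pathway genes are not reported here, and the list counts leave them out. Named genes are the 7 members, Ythdf2, up to 4 called genes of smallest p per pathway list (otherwise 2), the tested RAS relatives, and the 1 most similar gene per member. Alternatives were DESeq2 1.42.0, upper-quartile and RLE scaling, limma-voom and limma-trend on log2(FPKM + 0.1) or log2(FPKM + 1) with limma 3.58.1, other filters, protein-coding genes only, a replicate block, leaving out each library, and a loess correction (span 0.3) for GC content and length, where 16710 tested genes had a GC value from GENCODE M21. All 7 members have the same start and end there.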

Additional observations from a re-analysis of the deposited data

How the results depend on the processing

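All 7 genes kept their direction in the 18 alternatives, except that Hras stood at -0.0096 after the GC and length correction and at -0.00998 with the replicate block added to it. The number of the 7 genes called was 1 as reported. The share of all tested genes called is given in brackets for each alternative. None of the 7 was called with RLE scaling (3.85%), upper-quartile scaling (3.96%), limma-voom (3.87%), either FPKM scale (0.561% and 0.65%) or the replicate block (4.77%). It was 2 (Map2k2 and Mapk3) with DESeq2 (4.74%), without the low-count filter (3.73%) and with protein-coding genes only (5.41%). When 1 library was left out it was 0 to 1 (1.21% to 3.09%). With the GC and length correction it was 1 (2.56%), also with the block (3.14%), but that gene was Mapk3. The number of other pathway genes called, 4 as reported, was 7 with DESeq2 (4.74% of all tested genes called), 8 without the low-count filter (3.73%), 2 after the GC and length correction (2.56%), 2 with the replicate block added to it (3.14%), 0 on either FPKM scale (0.561% and 0.65%) and 0 to 3 when 1 library was left out (1.21% to 3.09%), with 2 without cKO replicate 1, 1 without cKO replicate 2 or Ctrl replicate 1, and 0 without cKO replicate 3 or Ctrl replicate 2. Rras reversed to -0.038 without cKO replicate 2 (highest value over the alternatives 0.26). Ythdf2 ranged from -0.29 (without Ctrl replicate 1, edgeR adjusted p = 0.00951) to 0.069 when 1 library was left out and stood at 0.0047 with the block and the GC and length correction. The 3 ratios kept their direction throughout, though the GC and length correction took those of the RAF and RAS pairs to 0.02, and the replicate block gave exact sign-flip p-values of 0.25, 0.5 and 0.25, where 0.25 is the smallest possible. Same-numbered libraries correlated at 0.09, 0.02 and 0.0085 in their deviations from the group means, and differently numbered ones at -0.05 to 0.04. With 3 libraries per group this cannot decide whether replicate numbers pair the libraries. The replicate block gave Map2k2 an edgeR adjusted p of 0.0556.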
